A study of Mus musculus with 33 samples.

Results

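Tbx5 occupancy in fibroblasts infected with all 3 cardiac reprogramming factors was measured against input chromatin of the same kind of cells, by sequencing of immunoprecipitated chromatin (ChIP-seq). The libraries were taken by their labels. They were the 4 libraries of Tbx5 ChIP, numbered 2 to 5, and the 6 libraries of input, numbered 1 to 6, from cells with Gata4, Mef2c and Tbx5. These are 10 of 33 libraries in the series, and each gave raw read counts in the same 30815 regions of the mm9 mouse genome, 201 to 1484 bp wide (median 234 bp).

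Tbx5 is a T-box transcription factor that heart development depends on and that binds short T-box elements in enhancers and promoters. In the embryonic heart it acts on many of the same genes as Gata4, a zinc-finger factor that binds GATA sequences, and Mef2c, a MADS-box factor of muscle genes. Expressed together in fibroblasts, the factors can turn part of the cells toward a cardiomyocyte-like state. A ChIP library holds the DNA that an antibody pulls down. Input is chromatin sequenced without that step, and shows how many reads a region gives with no antibody.

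All cells were of 1 cardiac fibroblast line from newborn Cd-1 mice, which carried an alpha-MHC-GFP reporter and had been immortalised with large T antigen. Tbx5 ChIP with all 3 factors used cells infected with Gata4, Mef2c and Tbx5 retroviruses and the goat antibody C-20. Input with all 3 factors came from cells with the same viruses and no antibody. For comparison, Tbx5 ChIP in cells with the Tbx5 virus alone (3 libraries), Gata4 and Mef2c ChIP in cells with all 3 viruses (6 and 4 libraries) and with their own virus alone (4 and 3 libraries), and input of cells with 1 virus (3 libraries, 1 for each factor) were used. Every group, input included, was treated with sb431542, an inhibitor of TGF-beta signalling, and xav939, an inhibitor of Wnt signalling, and was harvested at day 2. The labels call the replicates biological, but all came from the same line, and the cells were unsorted. More cells that bind and more binding per cell cannot be told apart in such samples. The labelled cell type was not checked here, since the counts hold no expression values.

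Totals over the regions were 580261, 943806, 956987 and 1431928 counts in Tbx5 libraries 2, 3, 4 and 5, against 165517 to 301678 in the inputs. Inputs 1 and 3 did not differ beyond the sampling noise (chi-square p = 0.467), nor did inputs 2, 4 and 5 (p from 0.272 to 0.949), so each set was summed and counted as 1 sample, which left 3 input samples. Their totals were 465330 (1 and 3), 732866 (2, 4 and 5) and 165517 (6). Among the Tbx5 libraries, number 4 stood apart. Its chi-square per degree of freedom was 3.49 to 4.23 against each of the others, which had 1.65 to 2.51 among themselves. Values below are CPM, read counts scaled to a common library total and by the trimmed mean of M-values (TMM), where 1 count was worth at most 1.97 CPM in Tbx5 libraries and 1.09 to 4.83 CPM in input samples.

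Tbx5 ChIP differed from input over most of the regions, in both directions. Of 28447 regions with enough counts to test, 9537 (33.5%) were higher in Tbx5 ChIP than in input and 10157 (35.7%) were lower, and 8753 were not called. Calls had an adjusted p below 0.05 in edgeR's quasi-likelihood F test. The median log2 fold change was 1.58 among the higher regions and -1.54 among the lower ones. Past 2 on the log2 scale there were 2084 higher regions, and past 3 there were 117, of which 3 went past 4. A test against a 2-fold difference (edgeR's glmTreat) called 5008 regions higher (17.6%) and 4006 lower (14.1%). The 5008 had a median log2 fold change of 1.91, and the weakest of them stood at 1.39.

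**Figure D1:**
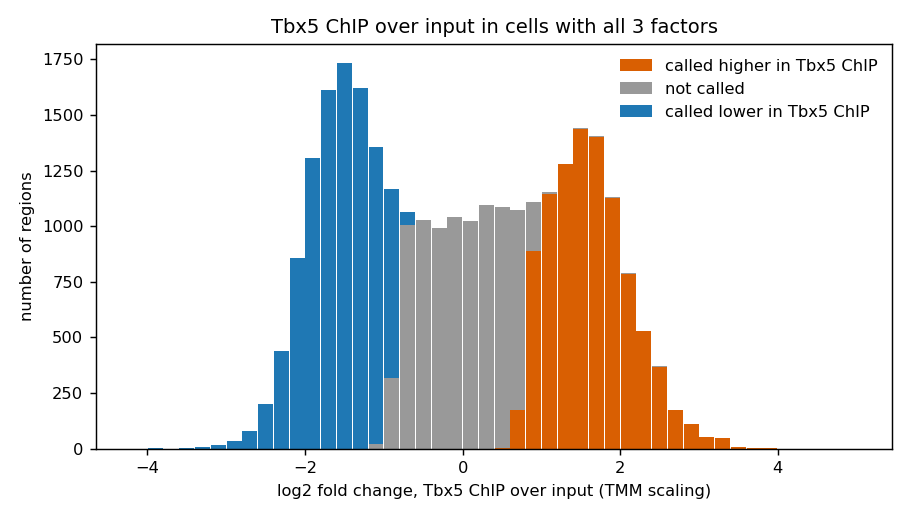
Number of regions (y axis) by log2 fold change of Tbx5 ChIP over input (x axis), stacked by call. Higher and lower calls form separate peaks around medians of 1.58 and -1.54, with 8753 regions not called between them.

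The balance between higher and lower calls was set by the scaling, since the table holds only the reads inside the regions. TMM puts the median region near 0 (-0.07 on the log2 scale). Scaling by library totals put it at -0.62 and called 6669 regions higher and 13055 lower. Scaling on the 20% of regions with the fewest Tbx5 counts per base in cells with Tbx5 alone put it at 0.82, with 13884 higher and 3167 lower. "Lower" below therefore means lower relative to the typical region of this table. Of the 5008 regions more than 2-fold higher, 5005 were also called higher with library totals and 5008 on the 20% of regions with few Tbx5 counts. A change of scaling shifts all regions by about the same amount. Regions that had passed a test against 2-fold thus had little room to lose the call, and these counts are a description. Libraries with all 3 factors fell, within each group, into sets of different Y chromosome read counts, numbers 1, 3 and 6 and numbers 2, 4 and 5. The labels do not name these as batches. They rest on 5 Y regions, and outside Gata4 ChIP on few reads. Tbx5 libraries 2, 3, 4 and 5 had 1, 11, 0 and 1 counts there, and inputs 1 to 6 had 7, 0, 12, 2, 0 and 7. Mef2c libraries 2, 3, 4 and 5 had 0, 14, 3 and 0. Gata4 libraries 1, 3 and 6 had 160, 78 and 114, and Gata4 libraries 2, 4 and 5 had 3, 9 and 1. With 2, 4 and 5 alone the counts were 6595 higher and 4522 lower. With 1, 3 and 6, where Tbx5 has 1 library that is assumed to vary like the inputs, they were 8364 and 5001.

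At most called regions the replicates kept apart from input, which a call made on these same samples favours. All 4 Tbx5 libraries were above all 3 input samples at 8897 regions tested (31.3%), which include 8533 of the 9537 called higher. All 4 were below all 3 inputs at 9260 (32.6%), which include 8731 of the 10157 called lower. Of the 5008 more than 2-fold higher, 4972 had all 4 Tbx5 libraries above all 3 inputs. The coefficient of variation between Tbx5 libraries had a median of 0.201 at those 5008 regions, 0.332 at regions not called and 0.423 at regions called lower. The same libraries defined these classes, and levels differed between them. The medians of the Tbx5 libraries averaged 95.3 CPM at the 5008 regions and 22.8 CPM at regions not called. The coefficients are therefore a description, and the part of level in them was not tested. Library 4 was the highest of the Tbx5 libraries at 44.6% of the regions called higher, and library 2 was the lowest at 41.2%. Across the regions called higher, library 4 had Pearson's r of 0.63, 0.72 and 0.69 with libraries 2, 3 and 5, and these had 0.82 to 0.85 with one another (9537 regions, which share libraries and width).

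The 10 regions with the largest enrichment, among those whose groups did not overlap and whose mean level exceeded the median, were 204 to 444 bp wide and held 4 to 57 input counts. On chromosome X, 96372095-96372391, Tbx5 libraries 2, 3, 4 and 5 had 498.6, 377.7, 129.9 and 137.7 CPM, against 6.92, 12.0 and 4.83 CPM in the inputs 1 and 3, 2, 4 and 5, and 6. Every Tbx5 library was above every input, and libraries 2 and 3 were well above 4 and 5. The log2 fold change was 4.92 ± 0.73 (SE, adjusted p = 0.000367, edgeR). A second region of the X chromosome, 20527791-20527994, had 53.2, 49.2, 72.0 and 58.9 CPM in the Tbx5 libraries, against 1.73, 2.18 and 4.83 CPM in the inputs. Here the Tbx5 libraries lay close together and the inputs held 4 counts in all. The log2 fold change was 4.52 ± 0.50 (adjusted p = 8.14e-08).

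Chromosome 16, 92282334-92282537, had 210.9, 123.0, 33.4 and 33.2 CPM in Tbx5 libraries 2, 3, 4 and 5, against 1.73, 4.37 and 19.3 CPM in the same inputs. The groups did not overlap, and libraries 2 and 3 were again the highest. The log2 fold change was 4.08 ± 1.15 (SE, adjusted p = 0.0151), but the call was lost without the summed inputs 2, 4 and 5 (adjusted p = 0.0742) and with libraries 2, 4 and 5 alone (adjusted p = 0.121). Its neighbour on the same chromosome, 92281515-92281718, 5th in the order, averaged 69.4 ± 57.2 CPM in Tbx5 ChIP (SD, n = 4) and 3.40 ± 3.46 CPM in input (n = 3), and lost its call with libraries 2, 4 and 5 alone too (adjusted p = 0.0798). Chromosome 17, 26782116-26782382, was even between replicates, at 179.3, 189.4, 165.9 and 158.4 CPM in the Tbx5 libraries, against 19.0, 5.46 and 9.66 CPM in the inputs. Its log2 fold change was 3.97 ± 0.34 (adjusted p = 1.94e-09).

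Ranks 5 to 10 had log2 fold changes of 3.59 to 3.95, with adjusted p at most 0.00773. Chromosome 1, 94240379-94240684, and chromosome 13, 52173081-52173356, were even between libraries, at 238.6 ± 34.7 CPM and 158.0 ± 18.3 CPM in Tbx5 ChIP (SD, n = 4), against 16.0 ± 7.45 and 13.2 ± 5.33 CPM in input (n = 3). Chromosome 16, 24367243-24367686, held the most Tbx5 of the 10, with 394.1 ± 60.0 CPM in Tbx5 ChIP and 30.2 ± 9.44 CPM in input. At chromosome 16, 49772842-49773045, and chromosome 7, 28440702-28441026, libraries 2 and 3 were again above 4 and 5. The means there were 94.7 ± 60.7 and 210.7 ± 68.6 CPM in Tbx5 ChIP, against 8.75 ± 5.02 and 14.5 ± 8.38 CPM in input.

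**Figure D2:**
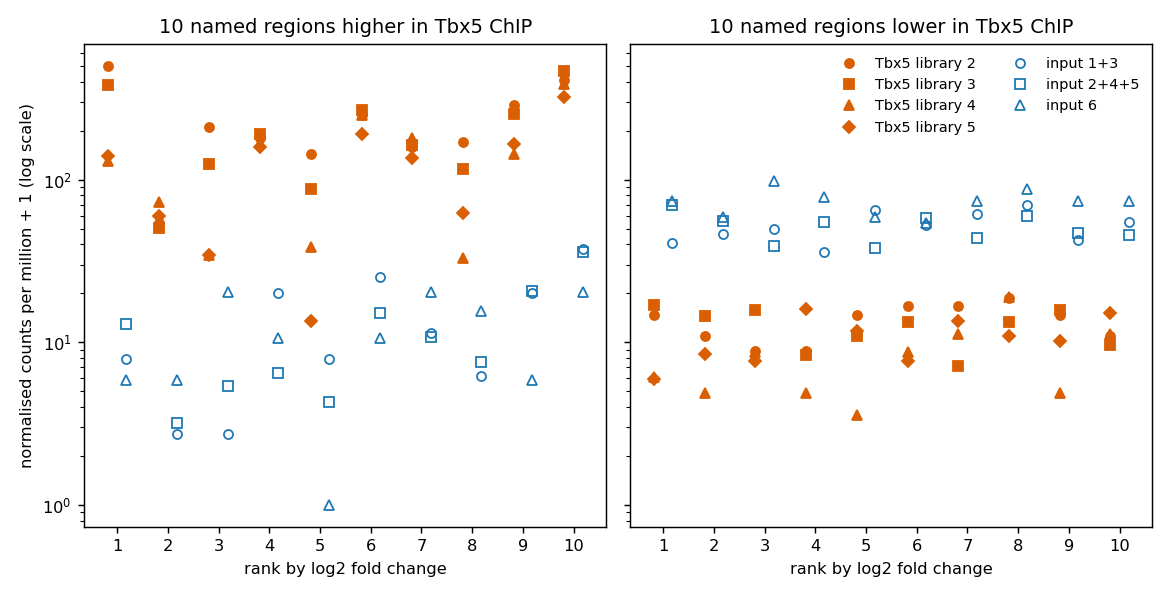
Normalised CPM plus 1 (y axis, log scale) of each Tbx5 library (filled) and input sample (open) at the 10 named regions higher (left) and lower (right) in Tbx5 ChIP, by rank (x axis), among called regions above the median level. The groups do not overlap at any of these regions, by the rule that named them, and Tbx5 libraries 2 and 3 lie above 4 and 5 at the higher ranks 1, 3, 4, 5, 8, 9 and 10.

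Regions rich in Tbx5 reads in absolute terms were wider, and not all of them were strongly enriched. The highest mean level among the regions called higher was at chromosome 8, 35160316-35161324, where Tbx5 libraries 2, 3, 4 and 5 had 723.3, 664.3, 509.3 and 627.0 CPM, against 110.7, 83.0 and 82.1 CPM in the inputs. All Tbx5 libraries lay far above all inputs, and the log2 fold change was 2.76 ± 0.20 (SE, adjusted p = 3.92e-10). On chromosome 6 a pair of wide regions lay close together. At 91492764-91493432 the Tbx5 mean was 492.1 ± 89.6 CPM and the input mean 52.3 ± 13.5 CPM (log2 fold change 3.17 ± 0.23), and at 91495706-91496623 they were 468.6 ± 41.0 and 79.8 ± 14.1 CPM (2.53 ± 0.20). Chromosome 2, 166224596-166225268, had 460.4 ± 107.2 CPM in Tbx5 ChIP and 59.6 ± 10.8 CPM in input (2.89 ± 0.23, adjusted p at most 9.42e-10 for all 3, edgeR).

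The third highest level behaved otherwise. Chromosome X, 166417917-166418386, had 380.4, 658.1, 506.7 and 373.2 CPM in Tbx5 libraries 2, 3, 4 and 5, and the inputs themselves held 353.0, 227.1 and 376.8 CPM. The groups overlapped, and the log2 fold change of 0.61 ± 0.21 (adjusted p = 0.0122) was lost in 6 alternatives and turned to -0.11 with the 6 inputs as separate samples and 13741 regions left to test. With separate inputs and the same regions tested it was 0.68 (adjusted p = 0.00063). Neither Gata4 nor Mef2c ChIP differed from Tbx5 ChIP there (log2 fold changes of Tbx5 over each -0.08 ± 0.22 and -0.11 ± 0.23). The widest region called higher, chromosome 10, 93212078-93213251 (1174 bp), had 441.5, 329.7, 316.4 and 491.8 CPM in the Tbx5 libraries, against 100.4, 111.4 and 111.1 CPM in the inputs. Its inputs were nearly equal, its Tbx5 libraries all lay well above them, and the log2 fold change was 1.88 ± 0.21 (adjusted p = 9.54e-08).

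The lowest log2 fold change of a region called lower was -3.97, and 29 lay below -3. The 10 regions named here are the lowest of 707 whose groups did not overlap and whose mean level exceeded the median. At chromosome 15, 65752629-65752990, Tbx5 libraries 2, 3, 4 and 5 had 13.8, 16.0, 5.14 and 4.98 CPM, against 39.8, 68.8 and 72.5 CPM in the inputs. The log2 fold change was -2.64 ± 0.40 (SE, adjusted p = 6.6e-06), and the groups did not overlap. Chromosome 10, 30437673-30438029, had 9.85, 13.5, 3.86 and 7.46 CPM in the Tbx5 libraries, against 45.0, 54.6 and 58.0 CPM in the inputs. It stood at -2.58 ± 0.37 (adjusted p = 3.65e-06), with inputs that were close to one another.

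At chromosome 10, 65440870-65441469, the Tbx5 libraries had 7.88, 14.8, 7.72 and 6.63 CPM, against 48.5, 38.2 and 96.6 CPM in the inputs. Library 3 was well above the other 3 there, and the log2 fold change was -2.56 ± 0.40 (SE, adjusted p = 8.96e-06). Chromosome 8, 68606584-68607180, had 7.88, 7.38, 3.86 and 14.9 CPM in the Tbx5 libraries, against 34.6, 53.5 and 77.3 CPM in the inputs, at -2.49 ± 0.40 (adjusted p = 1.28e-05). Ranks 5 to 10 ran from -2.28 to -2.48. Each of these 10 regions also had fewer Tbx5 than Gata4 reads, with log2 fold changes of Tbx5 over Gata4 from -1.19 to -3.90 (adjusted p at most 0.0219). Of 10157 regions called lower over input, 5972 were tested against Gata4. Of these, 35.5% were lower than Gata4, beside 21.4% of 23965 regions tested in both. A region with few Tbx5 reads passes the filter on low counts mainly through its Gata4 reads, which favours a lower call. Against Mef2c 3 of the 10 were tested, and 1 was called, at -1.36, with the others at -0.35 and -0.75. Both comparisons use the same Tbx5 libraries, so the counts are a description.

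The share of regions called higher grew with width. It was 21.9% of 15185 regions under 250 bp, 44.6% of 11716 regions of 250 bp to under 500 bp and 63.6% of 1546 regions of 500 bp or more, and the median log2 fold change was -0.70, 0.53 and 1.20 in the same order. Every Tbx5 library showed this order on its own, with medians over the wide regions of 0.89, 1.03, 1.12 and 1.15 in libraries 2, 3, 4 and 5, and of -0.39 to -0.63 over the narrow ones. Median levels, not divided by length, were 14.0 CPM in Tbx5 ChIP and 22.3 CPM in input under 250 bp, and 102.2 CPM in Tbx5 ChIP and 46.9 CPM in input at 500 bp or more.

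How the regions were chosen is not given in the sources used here, and width may depend on the same ChIP libraries. In cells with Tbx5 alone, whose libraries take no part in the comparison, the median log2 enrichment over the single-factor inputs was -0.25 ± 0.03 under 250 bp, 0.13 ± 0.06 at 250 bp to under 500 bp and 0.68 ± 0.11 at 500 bp or more (SD, n = 3 libraries). Gata4 ChIP with all 3 factors also ran in this order, at -0.26 ± 0.14, 0.20 ± 0.08 and 0.60 ± 0.17 (n = 5 samples). Mef2c ChIP gave -0.17 ± 0.06, 0.21 ± 0.21 and 0.33 ± 0.28 (n = 4 libraries).

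Regions in company were called higher more often than isolated ones. Of regions with no other region of the table within 10 kb, 27.1% were called higher, against 38.3% with 1 neighbour, 45.2% with 2 and 53.1% with 3 or more. The regions called higher formed 7639 runs, in which each lies within 10 kb of the next, and 3329 of the 9537 stood in 1431 runs of at least 2. A run can pass over regions of the table that were not called higher. Of 28447 regions tested, 15942 had no other region of the table within 10 kb. Runs were not counted over all regions, so these counts are a description. The longest runs held 7 regions, and there were 3 of these. In the first, on chromosome 19 from 10364229 to 10379665, the Tbx5 mean ran from 26.9 to 244.9 CPM and the input mean from 10.1 to 65.0 CPM. Its log2 fold changes were 1.25 to 2.94, so that strong and weak regions stood side by side. The other runs of 7 began at chromosome 19, 44357691, with log2 fold changes of 1.13 to 1.98, and at chromosome 7, 56080135, with 0.84 to 2.48.

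Chromosomes differed. The share called higher was highest on chromosome 7, at 48.5% of 1197 regions, and on X, at 44.7% of 356. Chromosomes 10 and 6 had the lowest, at 27.9% and 28.0%. Median log2 fold changes were 0.80 and 0.74 on chromosomes 7 and X, and -0.48 and -0.37 on 10 and 6. Background chromatin moved with the calls as well. In 5 classes of equal size by single-factor input counts per base, lowest to highest, the share called higher went down in steps, at 42.8, 36.2, 35.0, 29.4 and 24.3%. The shares called lower had no such order, at 33.0, 37.3, 34.8, 36.5 and 36.9%. The part of the background in these classes was not tested.

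**Figure D3:**
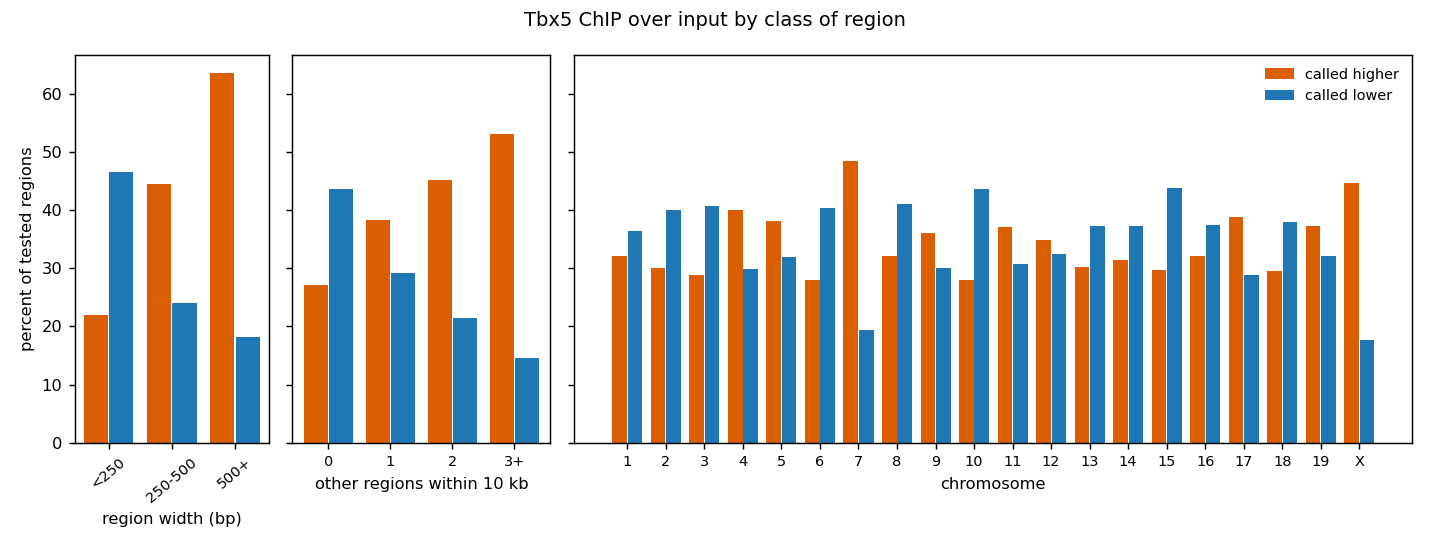
Percent of tested regions called higher (left bars) and lower (right bars) in Tbx5 ChIP over input, by width in bp, by number of other regions within 10 kb and by chromosome. The share called higher grows over the width classes (21.9, 44.6 and 63.6%) and with the number of neighbours (27.1 to 53.1%), and chromosomes 7 and X stand out at 48.5 and 44.7%.

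Cells with Tbx5 alone also had a large part of their Tbx5 reads in these regions. The 5008 regions more than 2-fold higher with all 3 factors held 47.8, 47.5 and 46.0% of the counts of the Tbx5-alone libraries 1, 2 and 3. The single-factor inputs of Gata4, Mef2c and Tbx5 cells held 17.3, 16.4 and 20.3% there. The groups did not overlap, with means of 47.1 ± 0.96% and 18.0 ± 2.01% (SD, n = 3 each). An exact two-sided permutation test gave p = 0.1, the smallest it can give with 3 against 3 (adjusted p = 0.111 over 10 such tests). Neither group took part in choosing the 5008 among the regions tested. Whether their libraries helped to define the regions of the table is not known. In the libraries that did choose them, the shares were 45.2 to 47.4% for Tbx5 ChIP with all 3 factors and 15.3 to 17.3% for its inputs, which is given as a description.

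For Gata4 and for Mef2c ChIP, every sample of cells with all 3 factors held a larger share of its counts in these Tbx5 regions than every library of cells with that factor alone. Same-numbered Gata4 and Mef2c libraries with all 3 factors deviated together with the Tbx5 libraries that chose the regions. These groups are thus not independent of the choice, and the tests of them do not account for that. Gata4 samples with all 3 factors held 22.3 to 25.7% (mean 24.2 ± 1.41%, SD, n = 5), against 13.7 to 17.6% in Gata4-alone libraries (15.0 ± 1.80%, n = 4) and 18.0% in the single-factor inputs. The groups did not overlap. The exact permutation p was 0.0159 against Gata4 alone and 0.0357 against inputs, each the smallest possible (adjusted p = 0.0794 and 0.0816). Mef2c libraries with all 3 factors held 17.0 to 18.3% (17.4 ± 0.62%, n = 4), against 8.29 to 8.35% in Mef2c-alone libraries (8.31 ± 0.03%, n = 3).

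For Mef2c the exact p against Mef2c alone was 0.0571, the smallest possible with 4 against 3 (adjusted p = 0.0816), and p = 0.686 against the inputs, whose 16.4 to 20.3% it overlapped. A share is of a library's counts in all regions, so it also moves with counts elsewhere. The library labelled Gata4 alone number 4 was nearest to the inputs, at 17.6%. Without it the Gata4-alone mean was 14.1% and the exact p 0.0357, the smallest for 5 against 3. None of the 10 tests passed 0.05 after adjustment.

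**Figure D4:**
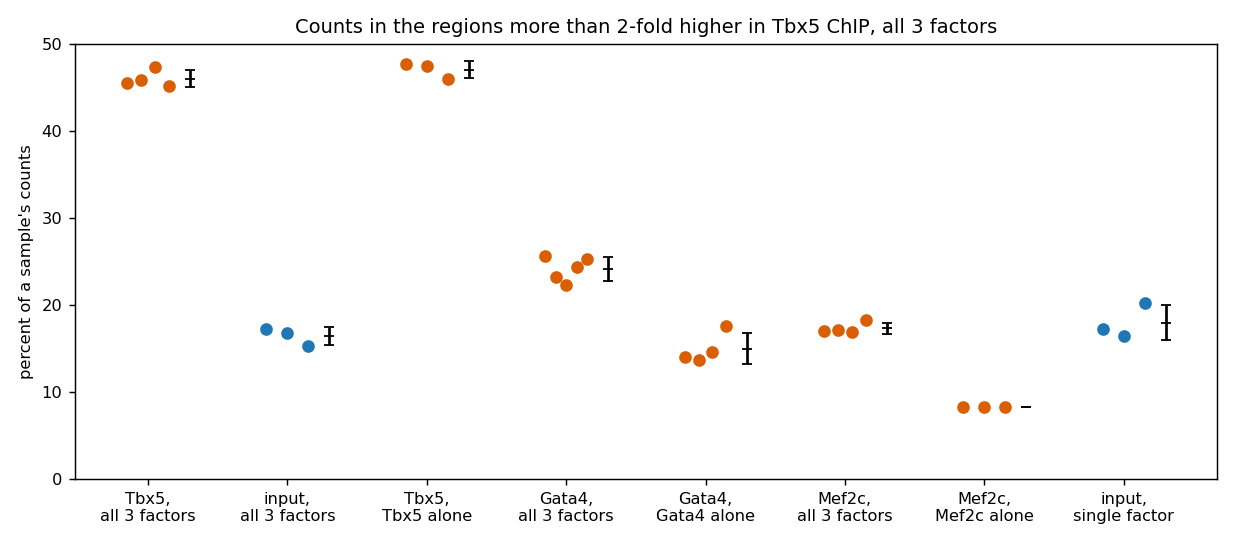
Percent of each sample's counts (y axis) in the 5008 regions more than 2-fold higher in Tbx5 ChIP over input with all 3 factors, by group, ChIP in orange and input in blue, with mean and SD in black. Tbx5-alone libraries (46.0 to 47.8%) lie at the level of Tbx5 with all 3 factors, Gata4 samples with all 3 factors at 22.3 to 25.7%, and Mef2c-alone libraries lowest, at 8.29 to 8.35%.

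The same regions were followed on a common scale, as the log2 ratio of each sample's CPM to the pooled single-factor inputs (TMM over all samples, 5 CPM added). At the 5008 regions the median enrichment was 1.79 ± 0.15 for Tbx5 with all 3 factors (SD, n = 4), 1.90 ± 0.10 for Tbx5 alone (n = 3), 0.37 ± 0.10 for Gata4 (n = 5), 0.14 ± 0.25 for Mef2c (n = 4) and -0.11 ± 0.07 for input with all 3 factors (n = 3). Over 28447 regions tested every one of these medians lay between -0.09 and 0.02. Enrichment above 1 was seen for Tbx5 alone at 80.8% of the 5008 regions, against 25.2% of all. It was seen for Gata4 at 22.5%, against 12.6% of all, and for Mef2c at 19.9%, against 26.6% of all.

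At regions called lower for Tbx5, the ChIP groups with all 3 factors and Tbx5 alone were below the single-factor inputs. The medians were -0.86 ± 0.15 for Tbx5 with all 3 factors, -0.74 ± 0.06 for Tbx5 alone, -0.55 ± 0.25 for Gata4 and -0.61 ± 0.30 for Mef2c, and 0.17 ± 0.07 for input with all 3 factors. Gata4-alone libraries had -0.20 to 0.05 there and -0.17 to -0.01 over all regions tested, and Mef2c-alone libraries -0.36 to -0.32 there and -0.21 to -0.18 over all. Of the regions called higher, not called and called lower for Tbx5, those not called had the most Mef2c. The Mef2c median there was 0.70 ± 0.35, and 43.6% of them were above 1 for Mef2c.

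In 10 classes of equal size by the Tbx5 log2 fold change over input, Mef2c peaked in the middle and Tbx5 alone at the top. The mean of the library medians for Tbx5 alone was -0.87 in the lowest class and 2.08 in the highest, where its 3 libraries ran from 2.04 to 2.18. Mef2c stood at 0.81 and 0.82 in classes 5 and 6 and at 0.17 in the highest, with libraries from -0.16 to 0.44 there. Gata4 was highest in classes 7 and 8, at 0.47 in each, and at 0.39 in the highest.

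**Figure D5:**
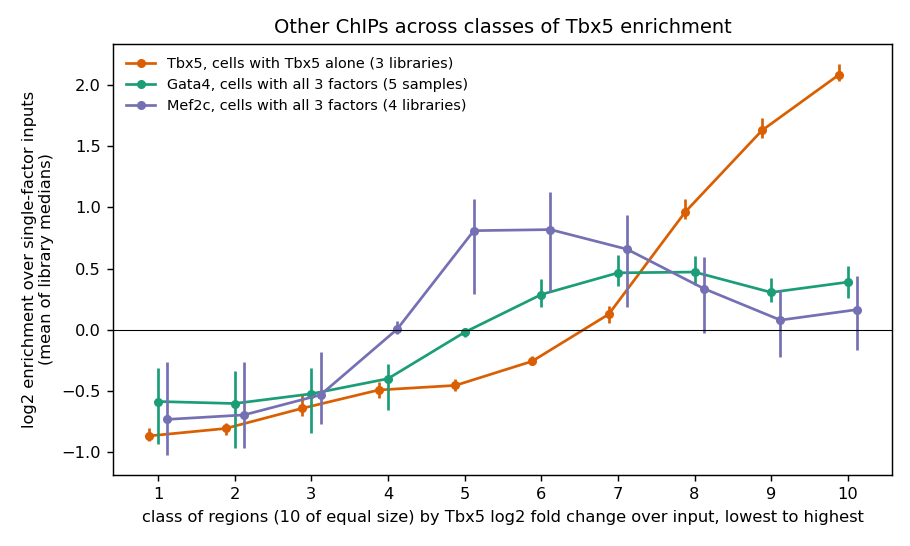
Log2 enrichment over the single-factor inputs (y axis, mean of the library medians, with the lowest and highest library as a line) in 10 classes of equal size by the Tbx5 log2 fold change over input, lowest to highest (x axis). Tbx5 alone climbs to 2.08 in class 10, Mef2c peaks at 0.82 in class 6 and Gata4 at 0.47 in class 8.

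Set directly against Gata4 ChIP of the same cells, Tbx5 ChIP was higher at 6637 of 25010 regions tested (26.5%) and lower at 5864 (23.4%). Calls and fold changes against Gata4 and Mef2c are from fits without pairing. With same-numbered libraries paired, 7391 regions were higher than Gata4 and 7460 lower. Among regions called higher over input, 6031 of 9532 tested were also higher than Gata4 and 317 were lower, and the median log2 fold change over Gata4 was 1.00, against -0.05 over all regions tested for both. Against Mef2c, Tbx5 was higher at 8028 of 22901 regions (35.1%) and lower at 8402 (36.7%), or at 9003 and 9210 when paired. Of the regions called higher over input, 6647 of 9530 were above Mef2c and 1133 below, with a median of 1.57 against 0.15 over all. Tbx5 was above both other factors at 4792 of 9527 regions (50.3%), against 4895 of 20980 tested in both (23.3%), and below both at 75, against 6.28% of those 20980. These comparisons share the Tbx5 libraries with the comparison that chose the regions, so the counts are a description. Read counts in ChIPs of different factors do not show which factor is more abundant at a region.

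Among regions called higher over input, the largest differences from Gata4 and Mef2c were at regions with few reads of those factors. On chromosome 18, 36831937-36832140, Tbx5 libraries 2, 3, 4 and 5 had 185.3, 136.4, 42.0 and 35.7 CPM, against 1.64 to 4.43 CPM (median 2.15) in 5 Gata4 samples. All Tbx5 libraries lay far above all Gata4 samples, and 2 and 3 above 4 and 5. The log2 fold change was 5.17 ± 0.55 (SE, adjusted p = 1.99e-07, edgeR). Next came chromosome 18, 75970724-75970965, with 119.2 ± 89.7 CPM for Tbx5 (SD, n = 4) and 4.83 ± 3.66 CPM for Gata4 (n = 5), and the region of chromosome 16 that starts at 92282334, with log2 fold changes of 4.52 ± 0.56 and 4.32 ± 0.59.

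Against Mef2c, the largest difference was at chromosome 2, 167848939-167849277, with 276.1, 174.0, 82.9 and 69.6 CPM in Tbx5 libraries 2, 3, 4 and 5, against 6.85, 2.75, 2.88 and 3.72 CPM in Mef2c libraries 2, 3, 4 and 5. Tbx5 was higher in every pair of the same number, and the log2 fold change was 5.33 ± 0.50 (adjusted p = 1.28e-07). Chromosome 3, 149092507-149092720 (4.96 ± 0.72), and chromosome 10, 39643052-39643532 (4.89 ± 0.41), followed. The last of these had 338.6 ± 193.7 CPM for Tbx5 and 12.1 ± 3.52 CPM for Mef2c (SD, n = 4 each).

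Other regions enriched for Tbx5 gave more reads in the ChIP of another factor. At chromosome 17, 56416173-56416379, Tbx5 libraries had 12.5, 17.0, 20.4 and 21.3 CPM, against 56.5 to 120.9 CPM (median 72.2) in Gata4 samples. The groups did not overlap, and Tbx5 over Gata4 stood at -2.12 ± 0.29 on the log2 scale (adjusted p = 6.28e-07, edgeR). Over input the same region was higher for Tbx5, at 1.21 ± 0.45 (adjusted p = 0.0209). Chromosome 7, 151242175-151242520, and chromosome X, 13038677-13038899, followed at -1.67 ± 0.21 and -1.56 ± 0.26 against Gata4. The Mef2c side was larger. On chromosome 7, 56103423-56103625, which belongs to a run of 7 above, Tbx5 libraries had 8.12, 12.8, 24.4 and 15.0 CPM, against 157.5, 198.2, 187.3 and 149.6 CPM in the Mef2c libraries.

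There the log2 fold change of Tbx5 over Mef2c was -3.48 ± 0.30 (adjusted p = 7.17e-08). Chromosome 7, 66099523-66099725, averaged 22.3 ± 7.35 CPM for Tbx5 and 208.6 ± 40.9 CPM for Mef2c, and chromosome 19, 4992898-4993144, had 36.8 ± 9.95 CPM for Tbx5 and 308.5 ± 63.0 CPM for Mef2c (SD, n = 4 each). These stood at -3.18 ± 0.29 and -3.06 ± 0.26.

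Whether the enrichment of Tbx5 depended on the other factors was tested as a difference of differences, Tbx5 over input with all 3 factors minus Tbx5 alone over single-factor inputs. It was called at 1646 of 28673 regions (5.74%), with 998 (3.48%) higher with all 3 factors and 648 (2.26%) lower. Of regions called higher over input, 660 of 9491 tested were higher with all 3 factors and 128 lower, beside 994 and 606 of 27492 regions tested in both. The median difference was 0.08 among them and -0.04 over all. The same libraries chose these regions, which favours a higher value with all 3 factors, so the counts are a description. The total was 851, 1055 and 953 without the input of Gata4, Mef2c and Tbx5 cells, 878 and 805 without the summed inputs 1 and 3, and 2, 4 and 5, and 2726 without Tbx5 library 4. Virus combination and input libraries differ together between these groups and cannot be told apart.

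The largest gain of this kind among regions called higher was at chromosome 11, 115124203-115124404. With all 3 factors Tbx5 libraries 2, 3, 4 and 5 had 65.9, 41.7, 9.39 and 54.8 CPM, against 18.6, 21.4 and 0 CPM in the inputs. With Tbx5 alone 3 counts fell there in all, against 13 in the single-factor inputs, a count ratio of 0.107 (95% counting interval 0.0195 to 0.388). Library 4 was below 2 of the 3 inputs, and the difference was 4.45 ± 1.05 on the log2 scale (adjusted p = 0.00803, edgeR). The widest region called higher, on chromosome 10, also had a difference, of 1.54 ± 0.37 (adjusted p = 0.00819).

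At chromosome X, 154136777-154137012, Tbx5 libraries with all 3 factors had 34.0, 63.2, 49.6 and 79.0 CPM, against 11.9, 7.49 and 18.8 CPM in their inputs, and Tbx5-alone libraries had 5.29, 3.75 and 2.93 CPM, against 12.0, 24.6 and 15.8 CPM in theirs. Tbx5 was above every input with all 3 factors and below every input alone (difference 4.43 ± 0.97, adjusted p = 0.00412, edgeR). The Tbx5-alone side rested on few reads, 4 counts against 8 in the single-factor inputs, a count ratio of 0.231 (95% counting interval 0.051 to 0.863). Chromosome 7, 133842533-133842995, had 340 counts of Tbx5 with all 3 factors and 42 of input, and 7 of Tbx5 alone with 16 of single-factor input (4.43 ± 0.71, adjusted p = 0.000451).

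The opposite difference also rested on shallow inputs. At chromosome 18, 24017668-24017893, Tbx5 with all 3 factors had 48.0, 49.3, 79.1 and 45.8 CPM, against 18.6, 19.2 and 47.0 CPM in the inputs, a count ratio of 2.45 (95% counting interval 1.72 to 3.56). Tbx5 alone had 68.8, 116.2 and 87.9 CPM and the single-factor inputs held no count. Against a floor of 3 counts over the group, Tbx5 alone was 13.4-fold higher. The exact 95% counting interval, which also covers the error of the ChIP counts, begins at 10.7-fold. Chromosome 7, 35904035-35904327, and chromosome 3, 135488491-135488697, likewise had no count in these inputs. Tbx5 alone was 13.1-fold and 8.17-fold higher there against the same floor (intervals from 10.4 and 6.42). The corresponding adjusted p of the difference were 0.00344, 0.00707 and 0.0328 (edgeR).

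Tested by itself, Tbx5 alone was higher than single-factor input at 924 of 7330 regions (12.6%) and lower at 1359 (18.5%). The filter on low counts kept mainly regions rich in Tbx5 here, since the inputs held 97474 to 127871 counts, and TMM then centred on those. With TMM factors from all regions, chosen after the first result had been seen, 5640 were higher (76.9%), and 6.81% were lower. With library totals 4218 were higher and 741 lower. Of 5920 regions called higher with all 3 factors and tested in both, 901 (15.2%) were higher with Tbx5 alone and 561 (9.48%) lower in the planned fit. Under the factors from all regions, 5164 of 5920 (87.2%) were higher with Tbx5 alone, which is 91.6% of the 5635 higher for Tbx5 alone, and 84 (1.42%) were lower. Of all 7324 regions tested in both, 5920 were higher with all 3 factors and 5635 with Tbx5 alone. The filter kept mainly regions rich in Tbx5, so this overlap is a description. The total of 2283 calls (31.1%) was 7673, 7728 and 8900 without the input of Gata4, Mef2c and Tbx5 cells, and 770, 757 and 673 without Tbx5-alone library 1, 2 and 3.

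Among regions called higher with all 3 factors and above the median level of those tested for Tbx5 alone, which leaves out the regions with no input count above, the largest excess of Tbx5 alone was at chromosome 7, 133647177-133647380, with 60, 35 and 50 counts in the Tbx5-alone libraries and 1 in the single-factor inputs. The count ratio, on the scale shared by both settings, was 67.1 (95% counting interval 11.8 to 2667). Chromosome 5, 33972352-33972555, had 119 counts against 1 (ratio 55.0, 9.69 to 2192), and chromosome 5, 139625391-139625623, had 161 against 2 (37.2, 10.1 to 310.1). With all 3 factors the count ratios on the same scale were 9.14, 5.31 and 5.77, and the log2 fold changes over input 3.11 ± 0.31, 2.26 ± 0.34 and 2.40 ± 0.34. The tested differences, all 3 factors minus alone, were -2.71 ± 1.02, -3.28 ± 1.00 and -2.68 ± 0.905 on the log2 scale. Their adjusted p were 0.103, 0.0387 and 0.0647 (edgeR), so only the second was called.

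The other end held regions called higher with all 3 factors and lower with Tbx5 alone in the planned fit. Of the 3 named, the first and second were also lower with factors from all regions (log2 fold changes -1.23 and -1.11), and the third was not called (-0.55, adjusted p = 0.105, edgeR). Chromosome 2, 71212510-71213247, had 322 counts of Tbx5 and 103 of input with all 3 factors, a ratio of 1.73 (1.38 to 2.17), and 44 counts in Tbx5-alone libraries and 47 in their much shallower inputs, a ratio of 0.433 (0.280 to 0.668). Chromosome 2, 134740309-134741311, had ratios of 2.81 with all 3 factors and 0.470 alone, and chromosome 14, 55586797-55587044, had 2.19 and 0.699 (0.480 to 1.02). The differences between the settings were 2.01 ± 0.45, 2.52 ± 0.41 and 1.76 ± 0.39 (adjusted p = 0.00521, 0.000485 and 0.00433, edgeR), all higher with all 3 factors.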

How the data were processed

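The deposited values were raw read counts per region, whole numbers in 1 table for all libraries, not normalised by the authors. Per the submitters' processing notes, the tools were FastQC, Bowtie2 2.2.4 and featureCounts, on mm9. How reads were filtered and regions chosen is not given in the sources used here. No genome or annotation of that build was used here, so regions carry no gene names or sequence.

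Groups came from the labels. Libraries of a group that agree within sampling noise (chi-square test of counts) were summed: inputs 1 and 3, inputs 2, 4 and 5, and Gata4 libraries 1 and 6. The groups, comparisons, naming rule and summing were chosen with earlier results of these data known. Counts were tested with edgeR 4.0.16 (R 4.3.3; glmQLFit with robust estimation, glmQLFTest), TMM scaling and edgeR's filter (at least 10 counts, 15 in total). P-values were adjusted over all regions tested (Benjamini-Hochberg), the SE is the log2 fold change over the square root of F, and all tests were two-sided. DESeq2 1.42.0 was an alternative. The scripts were tested on simulated counts. P-values measure the spread between libraries of 1 cell line. Depths were 580261 to 1431928 counts a Tbx5 library and 165517 to 732866 an input sample. Counting intervals (95%, exact) and floors cover counting error only.

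Named regions were called, had groups that did not overlap, and exceeded the median tested region in mean log2 CPM. The 10 with the largest fold change each way were taken over input, and the top 3 each way, among regions higher over input, in the other comparisons. For the difference between settings, the values that must not overlap were each Tbx5 library's log2 CPM minus the mean log2 CPM of its inputs. The 5 highest Tbx5 levels among higher regions, the widest and the longest runs were added.

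Same-numbered Tbx5 and Gata4 libraries deviated together from their group means (r from 0.26 to 0.49), as did Tbx5 and Mef2c libraries (0.25 to 0.57), so these numbers pair the samples. The paired fits changed no count of calls by more than 1.5 times. Tbx5 and input libraries did not pair (-0.01 to 0.06).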

Additional observations from a re-analysis of the deposited data

Results flagged for a closer look

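At 4 of the named regions a single Tbx5 library stood far from the other 3. Chromosome 10, 65440870-65441469, had 14.8 CPM in Tbx5 library 3, against 6.63 to 7.88 CPM in the others. Chromosome X, 13038677-13038899, had 14.3 CPM in library 2, against 23.9 to 24.3 CPM in the others. At chromosome 7, 66099523-66099725, library 2 had 11.4 CPM, against 24.7 to 27.3 CPM, and at chromosome 19, 4992898-4993144, library 4 had 51.7 CPM, against 30.6 to 32.6 CPM. These came from 53 checks of a group at a region, of which chance flags about 1 in 20. The enrichment of Tbx5 differed between cells with all 3 factors and with Tbx5 alone at 1646 regions by the test of the difference itself.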

How the results depend on the processing

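Over input, regions called higher kept within 1.5 times of 9537 in all alternatives except the test against a 2-fold difference (5008) and the 6 inputs as separate samples (5072), where the filter left 13741 regions to test. With the same regions tested, an alternative added after the data had been seen, separate inputs gave 10043. In no alternative did a region called higher become lower. Regions called lower moved more. They numbered 3167 with scaling on regions poor in Tbx5 alone, 4006 against a 2-fold difference, 4594 with separate inputs, 4522 with numbers 2, 4 and 5 and 5001 with 1, 3 and 6 (1 Tbx5 library, assumed to vary like the inputs). Leaving out 1 sample gave 8107 to 10072 higher and 7479 to 10448 lower. The replicate block, whose numbers share no deviations between Tbx5 and input, gave 8472 higher and 8560 lower, or 6355 lower with unsummed libraries (19114 tested). The paired counts were 14851 against Gata4 (12501 unpaired) and 18213 against Mef2c (16430). Calls for Tbx5 alone were 4959 with library totals, 8690 with no filter, 6139 with factors from all regions (added later), and 673 to 8900 with 1 sample left out. For the difference between settings they were 805 to 2726. At chromosome X, 166417917, the log2 fold change of 0.61 turned to -0.113 with separate inputs and 13741 regions tested, and was 0.683 with separate inputs and the same regions. Of 590 values of 26 regions named over input, 580 kept direction and call, 9 lost the call and 1 reversed. Input depth, 4.83 CPM a count in input 6, limits folds at low levels.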
